A study of Arabidopsis thaliana with 18 samples.

Results

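The plant mitochondrial genome encodes a small share of the proteins of respiration, together with the rRNAs, some tRNAs and some ribosomal proteins needed to translate them. Its transcripts were followed here in Arabidopsis thaliana seeds, where respiration starts within the first hours of water uptake. The loci described are those that the deposited count table places on the mitochondrial genome and that hold at least 90 counts summed over all 18 libraries. That rule kept 51 of 152 mitochondrial loci, out of 32833 loci in the table. A further 35 mitochondrial loci had 0 counts and 66 had 1 to 89. Just outside the threshold lay trnN(GTT) with 89 counts, mttB with 88 and ATMG00680 with 69. Just inside lay ATMG00010 with 95 counts and ccmFN2 and ATMG01410 with 98 each.

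The seeds were freshly harvested and either dry or imbibed for 6 h on wet filter paper. The genotypes were wild-type Col-0, mkk3-1, which is a knock out of the kinase MKK3, and mpk7_ko3, a knock out of the kinase MPK7, both in the Col-0 ecotype. Each of the 6 groups had 3 libraries made from total RNA, and each mutant is represented by a single allele. The labels do not say whether the 3 libraries of a group come from separate seed batches, so p-values measure the spread between these libraries, which may be technical.

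Library totals ran from 18249333 to 21036275 counts. MKK3 was at 7.12 to 7.75 CPM (counts relative to library size, TMM-scaled for single genes) in dry mkk3-1 libraries against 16.2 to 18.6 in dry Col-0, and fell by 1.24 on the log2 scale (SE 0.106, edgeR quasi-likelihood test with Benjamini-Hochberg adjusted p = 4.43e-07). In imbibed seeds it was at 10.3 to 12.7 CPM in libraries labelled mkk3-1 and 12.5 to 14.1 in Col-0, a log2 difference of -0.18 (SE 0.0976, edgeR adjusted p = 0.307). The MKK3 level therefore does not check the label of the imbibed mkk3-1 libraries. MPK7 was lower in mpk7_ko3 than in Col-0 in both states, by -1.49 (SE 0.0951) in dry and -1.45 (SE 0.0917) in imbibed seeds on the log2 scale. As seed markers, the storage protein gene CRA1 averaged 29428 CPM and the dehydrin gene RAB18 24333 CPM in dry Col-0. Of 5 endosperm markers, EPR1 averaged 20104 CPM there, while RGE1, MEA, FIS2 and FWA averaged 0.0198 to 0.244 CPM. The 5 seed coat markers averaged 0.0593 (TT12) to 2.75 CPM (MUM4), and 3 of them passed the filter on low counts.

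Of the 51 loci, 3 are rRNA genes, which are given apart, 24 were matched to named protein-coding genes by exon length and spacing, and 24 are other loci, most of them open reading frames without a name in the sources used here. The count table gives locus numbers alone, and the gene names come from the RefSeq annotation of TAIR10.1. Several genes occur as pieces, because their exons lie far apart and the RNAs are joined by trans-splicing. For nad1 the pieces are exon 1 (ATMG01275), exons 2 to 3 (ATMG01120) and exons 4 to 5 (ATMG00516). For nad2 they are exons 1 to 2 (ATMG00285) and exons 3 to 5 (ATMG01320), and for nad5 exons 1 to 2 (ATMG00513), exon 3 (ATMG00665) and exons 4 to 5 (ATMG00060). A piece with its own locus number is counted as 1 locus.

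Which mitochondrial genes were counted at all went with the nuclear genome. Chromosome 2 of Arabidopsis carries a large insertion of mitochondrial DNA, and a read that matches both places equally cannot be placed by its sequence. In RefSeq TAIR10.1, 65.1% of all 150-base windows of the mitochondrial genome had an exact match in the nuclear chromosomes, and 98.8% of the nuclear windows with such a match lay on chromosome 2. The authors aligned reads to TAIR10, whose mitochondrial sequence is not that of TAIR10.1. The shares of copied windows may therefore differ for the sequence that the reads were aligned to. The insertion spans 3239166 to 3509765 of chromosome 2 and holds 124 loci of the table. A few stretches show the difference. The start of cob, the gene for apocytochrome b of complex III, is shown with its chromosome 2 copy and beside the start of cox1, the gene for subunit 1 of complex IV. The whole of nad5 exon 3 is shown because its 22 bases make it the shortest of the 51 loci. All are from RefSeq TAIR10.1, 5′ to 3′ on the coding strand, with no base singled out.
cob, mitochondrion: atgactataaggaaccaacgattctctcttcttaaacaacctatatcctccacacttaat
cob copy, chromosome 2: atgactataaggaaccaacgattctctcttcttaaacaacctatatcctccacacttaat
cox1, mitochondrion: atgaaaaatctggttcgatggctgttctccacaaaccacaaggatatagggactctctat
nad5 exon 3, mitochondrion: gatatgatgattggtttaggta

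The 60 bases of cob lie at Mt:182799-182858 on the minus strand and recur without a mismatch at chr2:3450863-3450922 on the plus strand. The 60 bases of cox1, at Mt:116286-116345 on the minus strand, occurred 0 times in the nuclear chromosomes, as did the 22 bases of nad5 exon 3 at Mt:360107-360128 on the plus strand. Over all 18 libraries cob had 1 count and cox1 had 5884.

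Along the matched genes this pattern held in part, as a description with no test. Of 37 protein-coding loci matched to RefSeq, 35 could be given a share of copied windows. The 11 loci with at most 20% of their windows copied were all above the 90-count threshold, with 319 to 7922 counts and a median of 1897. They were cox1, cox2, atp4, nad4L, nad9, ccmB, rps3, rpl16, nad1 exons 2 to 3, and nad5 exons 3 and 4 to 5. The 8 loci with 20 to 99% of their windows copied had 42 to 1343 counts, with a median of 582. Of these 8, 6 passed the threshold: rpl2, ccmFN2, nad7, matR, nad1 exons 4 to 5 and nad5 exons 1 to 2. With 80.7% of its windows copied, nad1 exons 4 to 5 had 3362 counts per kb. That is above nad5 exons 4 to 5, with 0% copied and 1884 counts per kb. Among the 16 loci with 99% or more of their windows copied, 6 passed the threshold, and the counts ran from 0 to 627 with a median of 52.5. Those 6 were nad4, both nad2 pieces, ccmFC, rps4 and nad1 exon 1. The genes atp1, cox3, nad3, nad6, atp8, rps7, rps12, ccmC and rpl5, all fully copied, stayed below it with 0 to 58 counts. The atp1 gene had 52 counts on the mitochondrial genome, and AT2G07698, the chromosome 2 locus that holds its copy, had 3960. The cob copy AT2G07727 likewise had 805 counts and the rpl5 copy AT2G07725 had 437. These 3 copies were singled out after their values were seen. Whether counts on either copy came from nuclear or mitochondrial RNA cannot be told apart in these files. How the authors' counting treated reads with several matches is not stated.

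**Figure D1:**
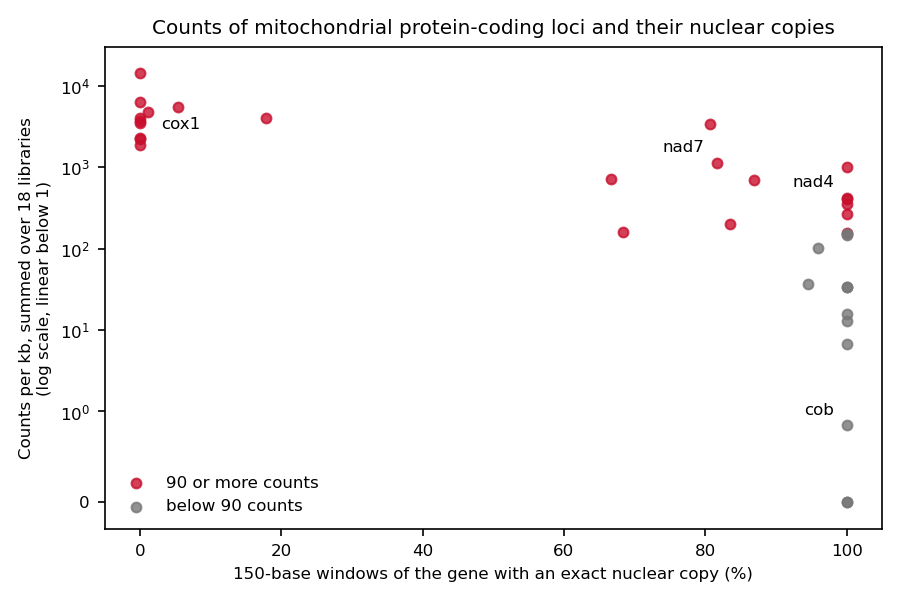
Counts per kb of merged exon, summed over 18 libraries (log scale, linear below 1), against the percentage of 150-base windows with an exact nuclear copy, for 35 protein-coding mitochondrial loci. Red points have 90 or more counts and grey points fewer. Loci without copied windows, such as cox1, sit at or above 1884 counts per kb, while the fully copied loci sit between 0 and 1014.

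Counts placed on mitochondrial loci took a small part of each library. They may be a partial count, because reads that match both genomes may be placed on either. Loci of the chromosome 2 insertion averaged 74.1 CPM without TMM scaling in dry Col-0 and 32.4 in imbibed Col-0. In dry seeds the loci of the mitochondrial genome held 739, 1562 and 813 CPM, here without TMM scaling, in the 3 Col-0 libraries, 996, 937 and 839 in mkk3-1, and 537, 843 and 604 in mpk7_ko3. After imbibition the values were 254, 241 and 723 in Col-0, 402, 482 and 486 in mkk3-1, and 314, 285 and 402 in mpk7_ko3. The dry and imbibed libraries did not overlap within any genotype. The rRNA genes held most of these counts, and without them the dry libraries ran from 137 to 309 and the imbibed ones from 64.2 to 154 CPM.

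In Col-0, replicate 2 of the dry seeds and replicate 3 of the imbibed seeds stood apart, with the highest mitochondrial share of their groups. The same libraries were high in nuclear rRNA, at 14090 CPM against 8444 and 8957 in dry seeds and 5199 against 2555 and 1689 in imbibed seeds. The part of that in the mitochondrial values was not tested, and values without both libraries are given beside the results whose call they end. These values are shares of each library, so a lower share does not show less mitochondrial RNA per cell. In bulk seed RNA, fewer mitochondria or mitochondrial genomes per cell, less RNA from each and more RNA from other genes cannot be told apart.

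**Figure D2:**
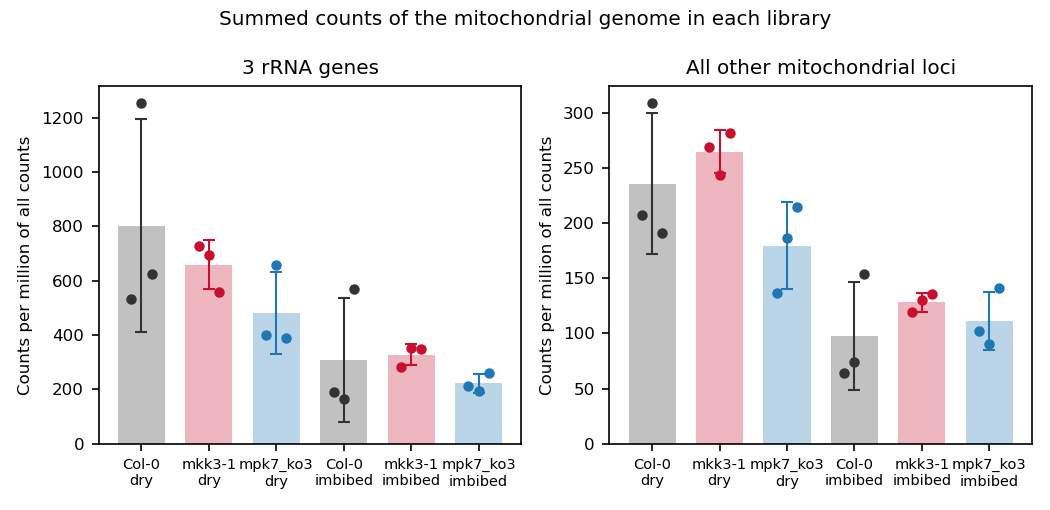
CPM without TMM scaling from the 3 mitochondrial rRNA genes (left) and from all other mitochondrial loci (right) in each library. Points are libraries, bars are means and error bars SD (n = 3). Replicate 2 of dry Col-0 and replicate 3 of imbibed Col-0 are the high points of their groups.

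The 2 large rRNAs were the most abundant members. In dry Col-0 seeds the small-subunit rRNA gene rrn18 was at 343, 643 and 333 CPM and in imbibed seeds at 65.4, 54.2 and 205. The large-subunit rRNA gene rrn26 was at 346, 875 and 411 CPM in dry and 89.3, 82.1 and 257 in imbibed Col-0. Each imbibed library was below each dry one, although imbibed replicate 3 came closest. Per kb of exon the 2 genes were close in dry Col-0, with mean levels of 227 CPM per kb for rrn18 and 212 for rrn26. The gene rrn5, for the short 5S rRNA, was far lower, at 1.23, 1.07 and 1.41 CPM in dry and 0.165, 0.160 and 0.164 in imbibed Col-0. Here too the dry and imbibed libraries did not overlap, as a description, since rrn5 passed the filter on low counts through dry libraries alone.

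Both large rRNAs fell after imbibition in each genotype. In Col-0 the log2 fold change was -2.02 (SE 0.348, edgeR adjusted p = 2.44e-05) for rrn18 and -1.93 (SE 0.362, edgeR adjusted p = 6.54e-05) for rrn26. In mkk3-1 the log2 fold changes were -1.63 and -1.52, and in mpk7_ko3 -1.83 and -1.54, in the same order of genes. Nuclear rRNA was lower in the same libraries, with mean levels of 10497, 9170 and 5573 CPM without TMM scaling in dry Col-0, mkk3-1 and mpk7_ko3 and 3148, 3183 and 2064 in imbibed seeds, without overlap in any genotype. Its part in the mitochondrial rRNA result was not tested. The rrn5 gene passed the filter on low counts through the dry libraries alone, so its log2 fold changes of -2.88, -2.10 and -1.41 are given as a description.

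Of the 48 other members, 46 passed the filter on low counts and were tested. ATMG00010 and ATMG00040 did not pass and have no fold change. The filter asks for 0.505 CPM, before TMM scaling, in at least 3 libraries. It was met in both states by 40 members, counting the rRNA genes. The genes rps4 and rrn5 and the locus ATMG09960 met it among dry seeds alone, and ATMG00590, ATMG00120 and ATMG00810 among imbibed ones alone, so a difference between the states helped these 6 to pass and their fold changes are descriptions.

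After imbibition most of them were lower. In Col-0, 34 of the 46 fell and 0 rose, where 36.1% of the 17758 genes tested across the table fell and 38.8% rose. DESeq2 also gave 34 lower and 0 higher, and at an unadjusted p below 0.05 edgeR gave 35 lower and 0 higher. In mkk3-1, 30 fell and 1 rose, against 35.8% and 37.5% of all genes tested, and in mpk7_ko3, 27 fell and 1 rose, against 34.9% and 37.6%. The median log2 fold change of the 46 was -1.57 in Col-0, -1.33 in mkk3-1 and -1.10 in mpk7_ko3, beside 0.06, 0.05 and 0.06 over all genes tested. The 46 include 26 that fell in all 3 genotypes, 35 that fell in at least 1 and 9 that were called in none. Among the 38 that met the filter in both states, 32, 28 and 25 fell and 0, 0 and 1 rose in Col-0, mkk3-1 and mpk7_ko3, with medians of -1.59, -1.49 and -1.19, and 25 fell in all 3 genotypes.

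Without both Col-0 libraries that stood apart, 34 fell and 0 rose in Col-0. One is a high dry library and the other a high imbibed one, so their effects may offset. The unchanged count therefore does not show that the calls are free of either library. Leaving out each library singly gave 29 to 38 lower loci in Col-0. The counts also depended on scaling to a degree. TMM factors were 0.763 to 0.863 in dry and 1.18 to 1.24 in imbibed libraries. With library totals in place of TMM, the median over all genes moved to 0.66, 0.60 and 0.61 in the 3 genotypes, and the medians of the members to -0.97, -0.78 and -0.55, with 25, 23 and 18 loci lower.

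**Figure D3:**
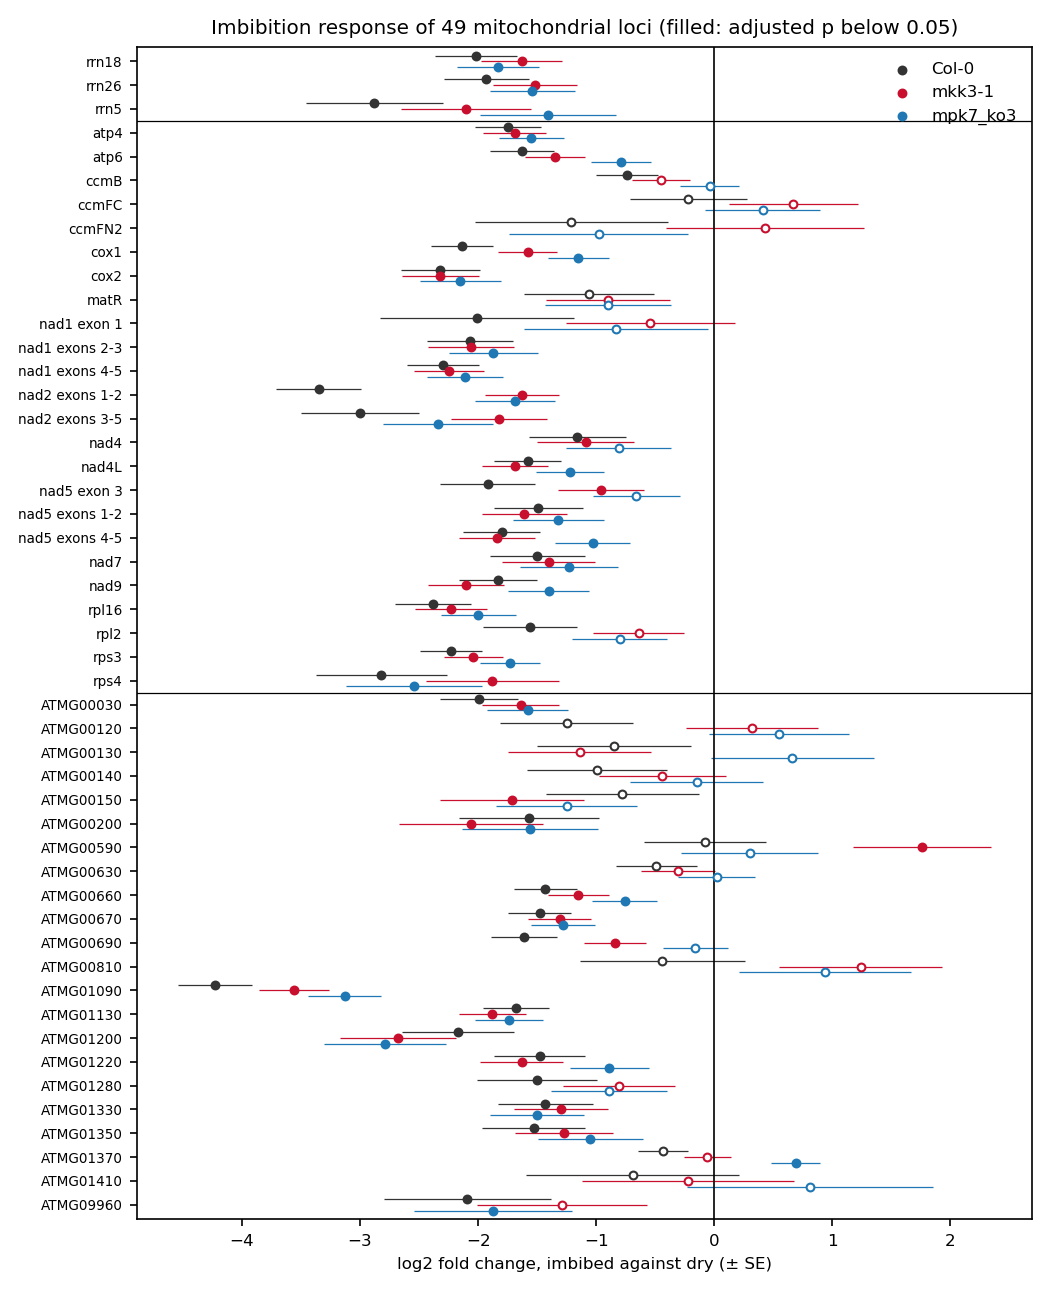
Log2 fold change of imbibed against dry seeds (± SE) for the 49 tested mitochondrial loci in Col-0, mkk3-1 and mpk7_ko3. Filled points passed an edgeR adjusted p of 0.05, and lines part rRNA genes, matched protein-coding genes and other loci. Most points lie left of 0, with points of ccmFC, ATMG01370 and ATMG00590 among the exceptions.

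Complex I, the NADH dehydrogenase that feeds electrons into the chain, supplied the most members. All 12 of its loci fell in Col-0, 11 in mkk3-1 and 9 in mpk7_ko3, where 36.1%, 35.8% and 34.9% of all genes tested fell. The 12 loci had median log2 fold changes of -1.88, -1.66 and -1.27. The steepest falls in Col-0 were in the 2 pieces of nad2, which codes for a membrane subunit. Exons 1 to 2 were at 2.53, 4.56 and 3.40 CPM in dry Col-0 and at 0.206, 0.480 and 0.328 after imbibition, a log2 fold change of -3.35 (SE 0.362, edgeR adjusted p = 4.11e-08). Exons 3 to 5 were at 1.99, 1.30 and 1.09 CPM in dry and 0.123, 0.160 and 0.246 in imbibed Col-0, a log2 fold change of -3.00 (SE 0.497, edgeR adjusted p = 1.54e-05). In both pieces the dry libraries lay well above the imbibed ones. Both pieces are fully copied in the nuclear genome.

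For nad1, the exon 2 to 3 piece fell by 2.07, 2.06 and 1.87 on the log2 scale in Col-0, mkk3-1 and mpk7_ko3, and the exon 4 to 5 piece fell by 2.30, 2.25 and 2.11. Exon 1 of nad1, which is fully copied on chromosome 2 and averaged less than 1 CPM in each group, had a log2 fold change of -2.01 in Col-0 (SE 0.823, edgeR adjusted p = 0.0330), -0.54 in mkk3-1 and -0.83 in mpk7_ko3, the last 2 not called. The difference in response was not called, at 1.47 (edgeR adjusted p = 0.759) for mkk3-1 and 1.18 (edgeR adjusted p = 0.876) for mpk7_ko3. The Col-0 call was lost without dry replicate 2 (-1.66, edgeR adjusted p = 0.127), imbibed replicate 1 (-1.70, edgeR adjusted p = 0.107) or imbibed replicate 2 (-1.55, edgeR adjusted p = 0.123), and with library totals (-1.42, edgeR adjusted p = 0.123). The subunit genes nad9, nad7 and nad4L fell in each genotype, by 1.83, 1.50 and 1.58 in Col-0. The nad7 call was lost with library totals in all 3 genotypes (-0.90, -0.86 and -0.69), and in mpk7_ko3 without dry replicate 3 (-0.95, edgeR adjusted p = 0.0710) or imbibed replicate 2 (-0.99, edgeR adjusted p = 0.0584). The gene nad4 gave -1.16 in Col-0 and -1.09 in mkk3-1, both called, and -0.81 in mpk7_ko3 (SE 0.442, edgeR adjusted p = 0.107). Its Col-0 value became -0.54 (edgeR adjusted p = 0.257) without dry replicate 2, -0.87 (edgeR adjusted p = 0.0971) without both libraries that stood apart and -0.57 (edgeR adjusted p = 0.217) with library totals. With library totals the mkk3-1 value was -0.53 (edgeR adjusted p = 0.248). The nad4 call in Col-0 was also lost without imbibed replicate 1 or 2, and that in mkk3-1 without any of 4 single libraries, with edgeR adjusted p from 0.0510 to 0.0660.

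The 3 pieces of nad5 gave -1.49 for exons 1 to 2, -1.92 for exon 3 and -1.80 for exons 4 to 5 in Col-0. In mkk3-1 the exon 3 call was lost with library totals (-0.41, edgeR adjusted p = 0.316) and with no filter. It was also lost without dry replicate 1 or imbibed replicate 1 or 3. In mpk7_ko3, library totals ended the calls of exons 1 to 2 (-0.77, edgeR adjusted p = 0.0786) and 4 to 5 (-0.48, edgeR adjusted p = 0.191). Exon 3, printed above, was at 1.37, 1.54 and 0.834 CPM in dry Col-0 and 0.206, 0.520 and 0.246 in imbibed Col-0. Its level per kb, 56.7 CPM in dry Col-0, was above that of the other nad5 pieces, but a locus shorter than a read gathers reads that lie mostly outside it.

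Complex IV, cytochrome c oxidase, was represented by cox1 and cox2, neither of which has a full window within its exons copied in the nuclear genome. The chromosome 2 locus AT2G07695, with 273 counts, still carries exact matches to windows that overlap cox2. In dry seeds cox1 was at 25.3, 38.2 and 22.5 CPM in Col-0, 30.7, 33.9 and 32.2 in mkk3-1, and 16.1, 21.8 and 22.5 in mpk7_ko3. After imbibition it was at 5.14, 3.64 and 10.8 CPM in Col-0, 10.1, 11.6 and 10.8 in mkk3-1, and 8.59, 7.42 and 11.2 in mpk7_ko3. Dry and imbibed libraries did not overlap in any genotype. The log2 fold change of cox1 was -2.14 (SE 0.262, edgeR adjusted p = 2.72e-07) in Col-0, -1.58 (SE 0.249, edgeR adjusted p = 9.17e-06) in mkk3-1 and -1.15 (SE 0.258, edgeR adjusted p = 0.000446) in mpk7_ko3. The test of the difference between genotypes did not pass, with 0.56 (SE 0.358, edgeR adjusted p = 0.701) for mkk3-1 and 0.99 (SE 0.366, edgeR adjusted p = 0.499) for mpk7_ko3 against Col-0. The gene cox2, for the subunit that receives electrons from cytochrome c, was at 14.8, 24.1 and 9.76 CPM in dry and 2.26, 2.88 and 4.64 in imbibed Col-0. Its log2 fold changes were -2.32, -2.32 and -2.15 in the 3 genotypes.

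For complex V, the ATP synthase, both members fell in each genotype. The gene atp4, for a peripheral stalk subunit, was at 7.33, 9.90 and 8.34 CPM in dry and 1.89, 2.04 and 3.65 in imbibed Col-0, with log2 fold changes of -1.75, -1.69 and -1.55 in Col-0, mkk3-1 and mpk7_ko3. The atp6 copy ATMG01170, for a proton channel subunit, gave -1.63, -1.35 and -0.79. The genome holds 2 atp6 copies, so counts of 1 copy are uncertain. The mpk7_ko3 call of atp6 was lost without dry replicate 3 of that mutant (-0.57, edgeR adjusted p = 0.0732) and with library totals (-0.25, edgeR adjusted p = 0.409).

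Per kb of exon, the ribosomal protein genes rps3 and rpl16 had mean levels of 21.7 and 20.7 CPM per kb in dry Col-0, beside 18.1 for cox1 and 20.7 for cox2. The gene rps3, for a small-subunit protein, was at 30.6, 48.6 and 29.7 CPM in dry Col-0 and 4.48, 6.99 and 11.7 in imbibed Col-0. Its log2 fold change was -2.23 (SE 0.261, edgeR adjusted p = 1.39e-07), with -2.04 in mkk3-1 and -1.73 in mpk7_ko3. The gene rpl16, which overlaps rps3 by 134 bases on the same strand, gave -2.38, -2.23 and -2.00, so part of the counts of both may be shared. The rps4 locus, which passed the filter through the dry libraries alone, was at 1.10, 1.19 and 1.28 CPM in dry and 0.123, 0.0799 and 0.287 in imbibed Col-0, and its log2 fold changes of -2.82, -1.88 and -2.54 are given as a description. For rpl2, with a second locus on chromosome 2, the log2 fold change was called in Col-0 (-1.56, SE 0.398, edgeR adjusted p = 0.00143), and not in mkk3-1 (-0.64) or mpk7_ko3 (-0.80). The difference in rpl2 response was not called for either mutant, at 0.92 (edgeR adjusted p = 0.673) for mkk3-1 and 0.77 (edgeR adjusted p = 0.820) for mpk7_ko3.

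Cytochrome c maturation is the pathway that attaches haem to c-type cytochromes, and 3 of its loci were tested. The gene ccmB, for a transporter subunit, was at 3.56, 5.57 and 3.40 CPM in dry and 2.10, 3.08 and 2.34 in imbibed Col-0, a log2 fold change of -0.74 (SE 0.260, edgeR adjusted p = 0.0143). The call was lost without dry replicate 2 (-0.47, edgeR adjusted p = 0.137) or imbibed replicate 1 (-0.63, edgeR adjusted p = 0.0605), without both libraries that stood apart (-0.42, edgeR adjusted p = 0.236), and with library totals (-0.15, edgeR adjusted p = 0.620). In mpk7_ko3, ccmB was at 4.07, 3.33 and 5.14 CPM in dry and 4.81, 2.64 and 4.78 in imbibed seeds, and the groups overlapped (log2 fold change -0.04, SE 0.251, edgeR adjusted p = 0.902). The ccmFC locus gave -0.22, 0.67 and 0.41 in the 3 genotypes and ccmFN2 gave -1.21, 0.43 and -0.98, none called, from levels near or below 1 CPM. The intron maturase gene matR gave -1.06, -0.90 and -0.90, also none called. It lies within an intron of the nad1 exon 4 to 5 piece, which fell in each genotype.

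**Figure D4:**
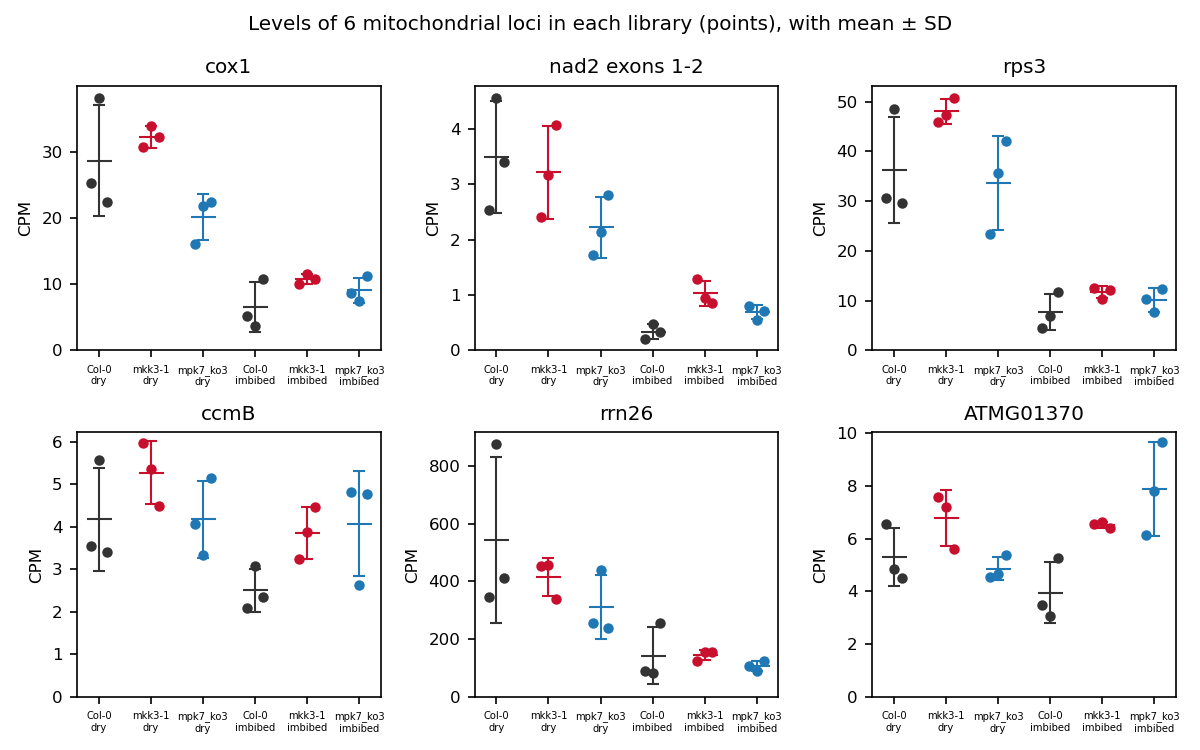
TMM-scaled CPM of 6 mitochondrial loci in each of the 6 groups. Points are libraries, and the dash and error bars give mean ± SD (n = 3). The cox1, nad2, rps3 and rrn26 panels drop from dry to imbibed seeds, while the states overlap for ccmB in mpk7_ko3 and the imbibed mpk7_ko3 points of ATMG01370 lie above those of Col-0.

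Among the unnamed loci, 13 of 22 fell in Col-0, 12 in mkk3-1 and 11 in mpk7_ko3, where 36.1%, 35.8% and 34.9% of all genes tested fell. The largest fall of any member was in ATMG01090, at 17.9, 20.1 and 9.69 CPM in dry and 0.411, 0.959 and 1.15 in imbibed Col-0. Its log2 fold change was -4.23 (SE 0.313, edgeR adjusted p = 1.07e-10) in Col-0, -3.56 (SE 0.295, edgeR adjusted p = 7.52e-10) in mkk3-1 and -3.13 (SE 0.310, edgeR adjusted p = 1.17e-08) in mpk7_ko3. The locus ATMG00030, 502 bases from rrn26 on the other strand, was at 34.6, 76.1 and 35.9 CPM in dry and 7.40, 7.71 and 21.8 in imbibed Col-0. Its highest dry and highest imbibed library were those of rrn26, and its log2 fold changes were -1.99, -1.64 and -1.58. Whether the counting used strand is not stated.

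A rise after imbibition was called for 1 locus in each mutant. ATMG01370, which lies 9 bases from rrn5 on the same strand, was at 4.55, 4.66 and 5.38 CPM in dry and 6.13, 7.80 and 9.68 in imbibed mpk7_ko3. Its log2 fold change was 0.69 (SE 0.205, edgeR adjusted p = 0.00489) there, -0.43 (SE 0.212, edgeR adjusted p = 0.0751) in Col-0 and -0.06 (SE 0.199, edgeR adjusted p = 0.803) in mkk3-1. The difference of the mpk7_ko3 response from that of Col-0 was 1.12 (SE 0.295, edgeR adjusted p = 0.266) and did not pass. ATMG00590, named after its value was seen and 121 bases from nad4, gave 1.76 in mkk3-1, from 0.0574, 0.190 and 0.233 CPM in dry to 0.391, 0.530 and 0.739 in imbibed seeds. It passed the filter through the imbibed libraries alone, so this is a description.

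Of 33 tested loci on the chromosome 2 insertion, 23 fell in Col-0, 19 in mkk3-1 and 12 in mpk7_ko3, where 36.1%, 35.8% and 34.9% of all genes tested fell, with 0, 1 and 1 higher and medians of -1.56, -1.14 and -1.04. The atp1 copy AT2G07698 was at 23.8, 35.1 and 18.5 CPM in dry and 1.52, 1.92 and 2.96 in imbibed Col-0. It fell by 3.60, 2.98 and 2.76 on the log2 scale in Col-0, mkk3-1 and mpk7_ko3. The copy of cob, AT2G07727, was at 2.53, 6.64 and 4.30 CPM in dry and 0.658, 0.719 and 1.93 in imbibed Col-0, with a log2 fold change of -2.03 (SE 0.416, edgeR adjusted p = 0.000177). On the plastid genome 41, 45 and 18 of 67 tested loci fell in Col-0, mkk3-1 and mpk7_ko3, with medians of -0.98, -1.30 and -0.57. The mpk7_ko3 counts of both sets are near or below the share of all genes that fell.

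Nuclear genes for the same complexes moved in both directions. The lists were chosen by hand for known roles. Over all genes tested, 38.8%, 37.5% and 37.6% rose in Col-0, mkk3-1 and mpk7_ko3, and 36.1%, 35.8% and 34.9% fell. Of 13 nuclear complex I genes, 3 rose and 7 fell in Col-0 with a median log2 fold change of -0.20, and the rises became 9 and the median 0.40 with library totals as the scale. The largest changes were a fall by 1.08 for AT5G11770, a 20 kDa subunit, and a rise by 0.80 for GAMMA CA3, a gamma carbonic anhydrase of the complex. Of 8 ATP synthase genes, 7 rose and 0 fell in each genotype, with medians of 0.64, 0.61 and 0.67. Examples in Col-0 were AT5G08690, a beta subunit gene, at 1.05 (SE 0.0719) and ATP5, a delta subunit gene, at 0.88 (SE 0.0857). Of 5 complex IV genes, 1 rose and 2 fell in Col-0, with COX17, a copper chaperone, at -0.85 (SE 0.130). The complex IV counts are near or below the shares of all genes tested.

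For nuclear genes of mitochondrial gene expression and import, the counts stand beside 38.8% of all genes tested that rose and 36.1% that fell in Col-0. Of 5 genes for transcription and RNA turnover, 3 rose and 1 fell in Col-0, among them MGP3 (AT1G68990), a phage-type RNA polymerase, at 1.35 (SE 0.0777) and AT5G14580, a polyribonucleotide nucleotidyltransferase, at 1.23 (SE 0.0822). Of 14 genes for splicing and editing, 10 rose and 2 fell in Col-0, led by the RNA helicase PMH1 at 1.80 (SE 0.0991) and the pentatricopeptide repeat protein BIR6 at 1.43 (SE 0.121). Of 7 tested genes for import and chaperones, 6 rose and 1 fell, with mtHsc70-1 at 2.14 (SE 0.0832) and HSP60 at 1.14 (SE 0.0697). The alternative oxidases, which bypass complexes III and IV, had 2 falls among 3 tested genes in Col-0, with AOX2 at -1.35 (SE 0.0769). Of 4 complex II genes 1 rose and 2 fell in Col-0, and of 11 genes for complex III and cytochrome c 4 rose and 3 fell.

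**Figure D5:**
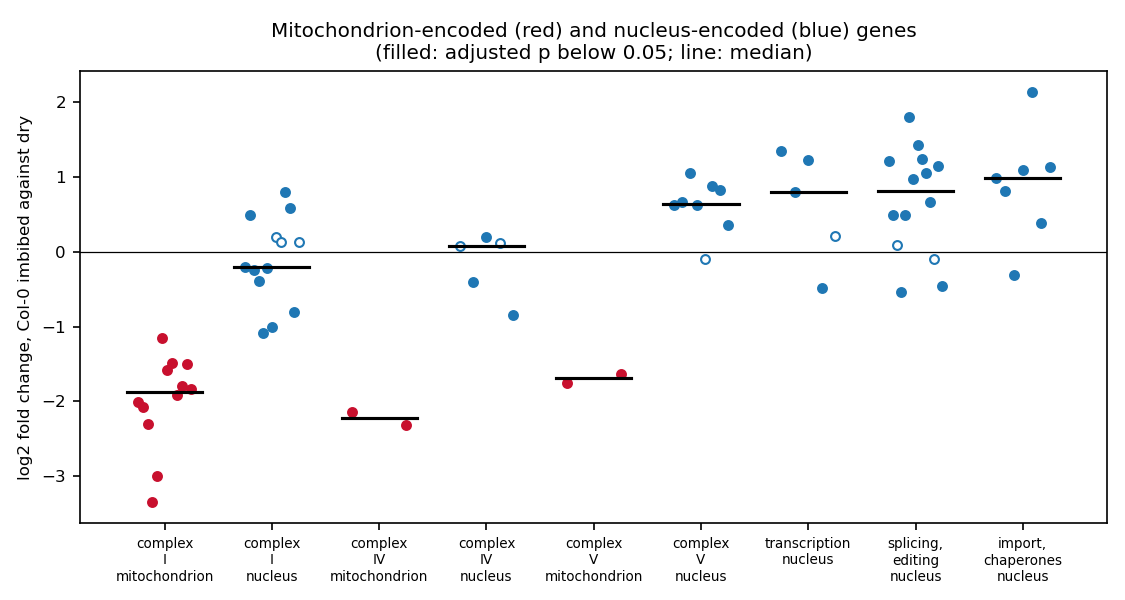
Log2 fold change of imbibed against dry Col-0 seeds for genes of respiratory complexes encoded in the mitochondrion (red) and nucleus (blue), and for nuclear genes of mitochondrial transcription, splicing and editing, and import. Filled points passed an edgeR adjusted p of 0.05 and black lines are medians. All 16 mitochondrial points lie below -1, while the nuclear medians run from -0.20 to 0.99.

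Few mitochondrial loci were called in the mutants against Col-0. The comparisons of both mutants share the Col-0 libraries, so their values are given side by side. In dry seeds 0 of the 46 loci were called by edgeR or DESeq2 in either mutant, where 0.687% of all genes tested were higher and 1.4% lower in mkk3-1, and 0.653% higher and 2.11% lower in mpk7_ko3. At those shares a count of 0 among 46 is near the background. At an unadjusted p below 0.05, edgeR gave 0 higher and 1 lower in mkk3-1 and 0 higher and 5 lower in mpk7_ko3. The 3 rRNA genes were not called in either mutant in either state. In dry mpk7_ko3 their median log2 difference from Col-0 was -0.80. Nuclear rRNA was at 5008 to 6535 CPM without TMM scaling in those libraries against 8444 to 14090 in dry Col-0, and the plastid loci had a median difference of -0.86. Their part in the rRNA values was not tested.

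In imbibed seeds labelled mkk3-1, 3 loci were higher and 0 lower, where 3.63% of all genes tested were higher and 4.32% lower. They were both nad2 pieces, which are fully copied in the nuclear genome, and ATMG01370. The nad2 exon 1 to 2 piece was at 1.29, 0.937 and 0.862 CPM there and at 0.206, 0.480 and 0.328 in imbibed Col-0, a log2 difference of 1.59 (SE 0.385, edgeR adjusted p = 0.0123). Its exon 3 to 5 piece was at 0.587, 0.530 and 0.780 CPM against 0.123, 0.160 and 0.246, a difference of 1.80 (SE 0.517, edgeR adjusted p = 0.0347). The groups did not overlap in either piece. For imbibed mpk7_ko3 the nad2 pieces gave 1.01 (SE 0.403, edgeR adjusted p = 0.125) and 0.60 (SE 0.577, edgeR adjusted p = 0.582).

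ATMG01370 was at 6.54, 6.64 and 6.40 CPM in imbibed mkk3-1 and 6.13, 7.80 and 9.68 in imbibed mpk7_ko3, against 3.50, 3.08 and 5.26 in imbibed Col-0. The log2 difference was 0.73 (SE 0.202, edgeR adjusted p = 0.0292) for mkk3-1 and 1.00 (SE 0.200, edgeR adjusted p = 0.00333) for mpk7_ko3. The mkk3-1 call was lost without any 1 of 5 of the 6 libraries compared, with edgeR adjusted p from 0.0709 to 0.139. In mpk7_ko3, 2 loci were higher and 0 lower, where 5.12% of all genes tested were higher and 4.72% lower. The second was ATMG01220, named after its value was seen, with 1.29 (SE 0.373, edgeR adjusted p = 0.0324) from levels of 0.915, 0.980 and 1.50 CPM against 0.206, 0.520 and 0.657. That call was lost without imbibed Col-0 replicate 1 (0.94, edgeR adjusted p = 0.157) or 2 (1.38, edgeR adjusted p = 0.0705), without imbibed mpk7_ko3 replicate 3 (1.03, edgeR adjusted p = 0.141), and with only the libraries compared (edgeR adjusted p = 0.0736). Both are counts of few loci beside that background, and they moved with single libraries. Leaving out each library gave 0 to 4 loci higher for mkk3-1 and 1 to 4 for mpk7_ko3. Without the 2 Col-0 libraries that stood apart, 6 and 5 loci were higher, with cox1 and rps3 among them in both mutants, and the nad2 exon 3 to 5 piece was not called (2.11, edgeR adjusted p = 0.0681). The nad2 exon 3 to 5 call was lost without any 1 of the 6 libraries compared, with edgeR adjusted p from 0.0541 to 0.143. The exon 1 to 2 call was lost without imbibed Col-0 replicate 1 or 3 or mkk3-1 replicate 1, with edgeR adjusted p from 0.0528 to 0.0830.

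The difference in imbibition response was called for 0 of the 46 loci in either mutant by edgeR and DESeq2. Over all genes tested, 0.0788% had a higher and 0.0451% a lower response in mkk3-1, and 0% and 0.00563% in mpk7_ko3. At an unadjusted p below 0.05, edgeR gave 2 loci with a higher and 0 with a lower response in mkk3-1, and 8 and 0 in mpk7_ko3. The largest such difference among named genes was 1.72 (SE 0.485, edgeR adjusted p = 0.192) for nad2 exons 1 to 2 in mkk3-1. The median difference of the 46 was 0.27 for mkk3-1 and 0.49 for mpk7_ko3, beside -0.01 and 0.01 over all genes tested.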

How the data were processed

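Total RNA from 18 seed libraries was sequenced as paired reads of 150 bases, per the labels. The authors deposited raw counts per gene. Per the submitters' processing notes, tools were fastp 0.20.0, HISAT2 2.1.0, featureCounts 2.0.1 and DESeq2 1.34.0, on TAIR10. Strand setting and reads with several matches are not stated; poly(A) selection is not stated either. Counts were filtered with filterByExpr (minimum count 10; 17758 of 32833 genes kept), scaled by TMM and fitted in edgeR 4.0.16 (R 4.3.3) on all libraries with 1 coefficient for each group, 12 residual degrees of freedom and Benjamini-Hochberg adjustment over all genes tested, threshold 0.05, two-sided. Each SE was derived from the fold change and its F statistic. The fit was tested on simulated data.

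Members and gene lists were chosen with earlier results of these data known. Members with a known role could be named anywhere. Of other loci, up to 3 rises and 3 falls per comparison with a mean of at least 5 CPM could be named, and from each nuclear list up to 4 called genes. Gene names were assigned by exon length and spacing against RefSeq TAIR10.1, whose mitochondrial sequence is not that of TAIR10. Nuclear start and end were identical for 32531 of 32547 loci. Alternatives were DESeq2 1.42.0, its size factors, library totals, nuclear genes for scaling, no filter, only the libraries compared, a replicate block, libraries left out, and shares with rRNA genes left out. Chosen after seeing the data was leaving out dry replicate 2 and imbibed replicate 3 of Col-0 together. Same-numbered dry and imbibed libraries correlated at -0.00356 to 0.366.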

Additional observations from a re-analysis of the deposited data

Results flagged for a closer look

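The imbibition response of MKK3 differed between mkk3-1 and Col-0 by 1.06 on the log2 scale (SE 0.144, edgeR adjusted p = 0.00170, interaction term). MKK3 rose by 0.68 (SE 0.106) from dry to imbibed seeds labelled mkk3-1, with means of 7.36 and 11.8 CPM, and fell by 0.38 (SE 0.0982) in Col-0, with means of 17.4 and 13.3 CPM. No mitochondrial locus had a called difference in response.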

How the results depend on the processing

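The falls after imbibition kept their count within 1.5 times under most alternatives. Leaving out each library gave 29 to 38 lower loci in Col-0, 26 to 31 in mkk3-1 and 22 to 31 in mpk7_ko3, and 0 to 2 and 1 to 1 higher loci in the mutants. Library totals gave 3 higher loci in mkk3-1, and a fit of only the libraries compared gave 0. For imbibed mkk3-1 against Col-0, 5 loci were higher with no filter, 5 with only the libraries compared and 6 without both Col-0 libraries that stood apart, with 0 to 4 on leaving out each library. For imbibed mpk7_ko3 against Col-0 the counts were 4, 1 and 5, then 5 with DESeq2, 1 without replicate 3 of mpk7_ko3, and 1 to 4 on leaving out each library. In dry mpk7_ko3, 2 loci were lower with no filter and 0 to 1 on leaving out each library. Without rRNA genes the mean mitochondrial share was 235, 265 and 180 CPM in dry Col-0, mkk3-1 and mpk7_ko3, and 97.4, 129 and 111 in imbibed seeds. Of single-locus calls, 26 of 107 were lost with library totals and 0 with DESeq2, and 0 reversed. A replicate block gave 35, 30 and 26 lower loci and lost 1 of 107 calls, but same-numbered libraries share only a number. The causes of these changes were not tested. Many loci had few counts, which limits what could be called.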
